A study of Mus musculus with 36 samples.

Results

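Neuroligins, neurexins and LRRTM proteins hold the 2 sides of a synapse together. Neurexins sit on the axon terminal and bind neuroligins and leucine-rich repeat transmembrane proteins (LRRTMs) on the dendrite, and these contacts gather release machinery on one side and receptors on the other. Many of these genes are already transcribed in newborn neurons, before most synapses form. Here 9 genes were followed, chosen by name: 3 neuroligins (*Nlgn1*, *Nlgn2*, *Nlgn3*), 2 neurexins (*Nrxn2*, *Nrxn3*) and 4 LRRTM genes (*Lrrtm1* to *Lrrtm4*). They are 9 of 46603 genes in the count tables, and their read counts were taken from every library of the study.

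The study lowered *Chd8*, a chromatin remodelling gene linked to autism, in C57Bl/6J mouse embryos and sequenced mRNA. Per the paper, the tissue was neocortex at E12.5 and telencephalic vesicles at E10.5. At E12.5 the groups were *Chd8* +/+ (wildtype), *Chd8* +/- (1 null allele), *Chd8* neo/neo (2 hypomorphic alleles, in which a neo cassette inserted after exon 3 disturbs splicing) and *Chd8* neo/- (1 hypomorphic and 1 null allele). At E10.5 they were cKO (sox1-Cre; *Chd8* f/f) and Ctrl, whose label gives *Chd8* f/f and *Chd8* f/+ embryos together. Each group had 3 libraries, made from single embryos at E12.5 and from a pair of pooled embryos at E10.5, and each library was sequenced in 2 runs whose counts were summed. The Cre acts in the neuroepithelium, so cells of other origin in the dissected tissue keep *Chd8*. All E12.5 comparisons with wildtype share the same 3 *Chd8* +/+ libraries.

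Levels are given in CPM, counts scaled to the library's total with TMM factors. Library totals ran from 38774591 to 61051667 counts at E12.5 and from 49632937 to 68488879 at E10.5. *Chd8* itself had 235 to 239.5 CPM in the *Chd8* +/+ libraries, 165 to 170.2 in *Chd8* +/-, 203 to 213 in *Chd8* neo/neo and 142 to 158 in *Chd8* neo/-, and these 4 ranges did not overlap. At E10.5 it had 160.0, 168 and 184 CPM in Ctrl and 121, 125 and 116 CPM in cKO. The gene's count covers exons on both sides of the cassette, so the higher *Chd8* count of *Chd8* neo/neo than of *Chd8* +/- is no measure of protein. Per the paper, the Cre deletes only a single exon of *Chd8*, and the protein was widely lost in cKO brain. The *Chd8* count that remained in cKO is therefore no measure of protein either. What part of that count came from cells without Cre was not tested. All 19 markers of differentiating neurons were detected at E12.5, whereas *Neurod6* was at 0 in every E10.5 library. The E12.5 tissue, labelled cortex, also held markers of the ventral telencephalon, at 837 to 878 CPM in wildtype.

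Sequence before the annotated starts is shown for *Nrxn3*, a member that fell in both hypomorphs, and for *Nlgn2*, the most abundant member and one not called in the fit of all 4 genotypes. RefSeq promoter windows (build GRCm38.p6) matched 6 of 9 members, and *Nlgn3*, *Nrxn2* and *Lrrtm2* had no entry. *Nrxn3* had 3 windows, all within the span of the counted gene. The 2 shown precede starts called upstream (chr12:88953140-88953389, plus strand) and internal (chr12:89812233-89812482, plus strand) by their order to each other. The window not shown (chr12:88794254-88794503) lies farther upstream than both and held none of the motifs searched. The *Nlgn2* window is chr11:69837785-69838034 on the minus strand. Each run is 250 bases, 5′ to 3′, ending at the base before the start, and capitals mark GGACAG or its reverse complement.
Nrxn3, upstream start: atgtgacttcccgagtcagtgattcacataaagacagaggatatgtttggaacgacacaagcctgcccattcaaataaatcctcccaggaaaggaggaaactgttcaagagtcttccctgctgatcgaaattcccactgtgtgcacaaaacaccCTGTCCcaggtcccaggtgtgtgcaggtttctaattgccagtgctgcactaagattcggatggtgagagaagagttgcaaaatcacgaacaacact
Nrxn3, internal start: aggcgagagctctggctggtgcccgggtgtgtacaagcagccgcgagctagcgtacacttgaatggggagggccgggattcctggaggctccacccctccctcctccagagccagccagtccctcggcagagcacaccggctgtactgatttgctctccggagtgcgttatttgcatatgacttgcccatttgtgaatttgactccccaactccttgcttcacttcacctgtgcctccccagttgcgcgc
Nlgn2: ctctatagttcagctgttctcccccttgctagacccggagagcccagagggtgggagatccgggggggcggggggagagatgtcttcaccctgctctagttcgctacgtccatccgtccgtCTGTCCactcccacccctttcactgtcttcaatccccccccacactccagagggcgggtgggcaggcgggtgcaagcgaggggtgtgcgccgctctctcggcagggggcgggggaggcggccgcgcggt

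GGACAG is the right arm of the RE1 element, bound by the repressor REST. This arm stood in 1 of the 2 *Nrxn3* windows shown, in the *Nlgn2* window and in a *Lrrtm4* window not shown. It was found on either strand in 18.7% of all 32851 promoter windows of this length. CAGCACC, the left arm, was in 5.73% of windows and in none of the 3 shown, but it was in a *Nlgn1* window not shown. The RE1 core, which holds both arms with 2 bases of any kind between them, was in 0.0335% of all windows and in none of the members' windows. CAGATG, an E-box read by neurogenic bHLH factors, was in 14.4% of all windows and in none of the members' windows. These are matches of letters in one window and no measure of binding. Reads from all starts of a gene are summed in the deposited counts, so starts cannot be told apart.

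In wildtype neocortex at E12.5 the members covered a wide range of levels. Per kilobase of annotated exon, *Nlgn2*, whose protein sits at inhibitory synapses, was first with 32.6 ± 2.68 CPM per kb (SD, n = 3). *Nrxn2* followed with 8.0 ± 0.287 and *Nrxn3* with 3.71 ± 0.161, both presynaptic neurexins. *Lrrtm1*, an excitatory postsynaptic organiser, had 3.43 ± 0.188 CPM per kb, and *Nlgn3*, found at both excitatory and inhibitory synapses, had 2.63 ± 0.0575. Below these came *Lrrtm2* with 1.64 ± 0.109, *Nlgn1*, the neuroligin of excitatory synapses, with 1.48 ± 0.0991, *Lrrtm3* with 0.864 ± 0.0641 and *Lrrtm4* with 0.269 ± 0.0188 CPM per kb. In this order the libraries of *Nrxn3* and *Lrrtm1* overlapped, as did those of *Lrrtm2* and *Nlgn1*, and no other neighbours did. These lengths include exon bases shared with other genes, whose reads are counted to neither gene under the counter's default. The largest shares were in *Nlgn3* (3823 of 9271 bases), *Lrrtm4* (1543 of 6147) and *Nlgn1* (1229 of 13422). Their levels per kb, and the place of *Nlgn3* below *Lrrtm1*, may therefore be too low. By plain CPM the order changed in the middle, with *Lrrtm1*, a short gene model of 3033 exon bases, falling from place 4 to place 6.

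All 9 members had lower values in the Ctrl libraries at E10.5, where no library reached the lowest wildtype library at E12.5. The share of all genes with such a gap was not computed, so the gap is not shown to be particular to the members. The gap was widest for *Nrxn3*, with a mean of 0.387 CPM at E10.5 (13 to 28 counts) against 46.8 CPM at E12.5, a ratio of 121. *Lrrtm2* had 2, 5 and 10 counts in the Ctrl libraries, and *Nlgn1* had a ratio of 16. It was narrowest for *Lrrtm3*, with a ratio of 1.90, and for *Nlgn2*, with 2.34. The 19 neuron markers together had 279.4 to 505 CPM in Ctrl at E10.5 and 4621 to 5477 CPM in wildtype at E12.5. Stage, tissue taken, control genotype, sequencing batch and pooling of embryos cannot be told apart in this contrast. The tables were also scaled separately, so no test was made.

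**Figure D1:**
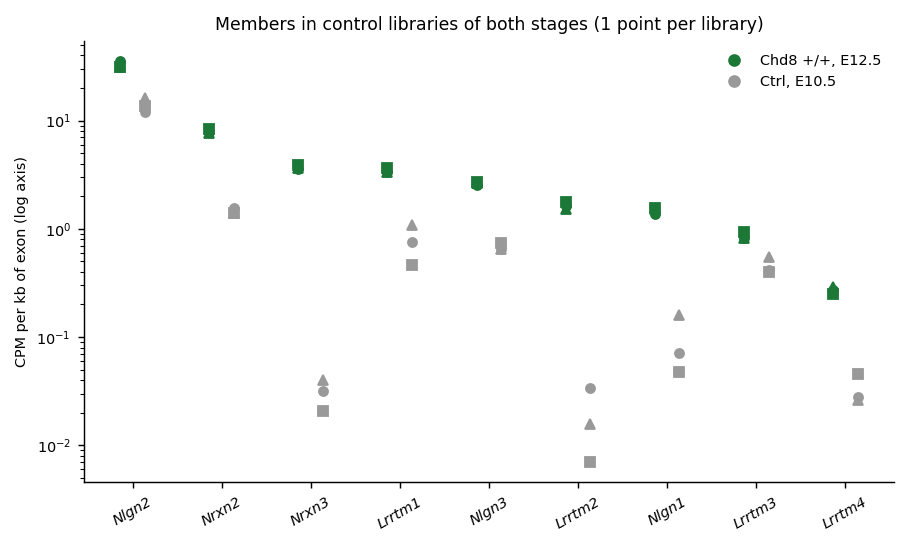
Level of each member in CPM per kilobase of exon (log axis), 1 point per control library, circle, square and triangle for replicates 1 to 3, green for *Chd8* +/+ at E12.5 and grey for Ctrl at E10.5. Every green point lies above every grey point of its gene, and the distance is widest for *Nrxn3* and *Lrrtm2*.

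The comparison with wildtype asks how each member responds as *Chd8* is lowered in steps. Loss of 1 allele left every member without a call: 0 of 9 passed in *Chd8* +/-, where 0.0213% of 18810 genes tested passed in edgeR's quasi-likelihood test with Benjamini-Hochberg adjustment. Their median log2 fold change was 0.06, beside 0.00 for all genes. At an unadjusted p under 0.05, 1190 genes stood out, *Nlgn3* among them. In *Chd8* neo/neo, *Nlgn3*, *Nrxn3* and *Lrrtm2* fell, which is 3 of 9 members where 8.16% of genes passed in either direction and 4.45% fell. In *Chd8* neo/-, these 3 and *Nrxn2* fell, 4 of 9, where 11.5% of genes passed and 5.99% fell. No member rose in any comparison. The members were chosen with earlier results of these data known, and the paper names *Nlgn3* among its changed genes. Their counts beside the shares of all genes are therefore no test. Over the 9 members the median was -0.30 on the log2 scale in *Chd8* neo/neo and -0.18 in neo/- embryos, beside 0.01 and 0.00 over all genes tested. The count in *Chd8* neo/neo was 1 without *Chd8* +/+ replicate 2 or 3 or *Chd8* neo/neo replicate 1 or 2. Over all genes, 564, 800, 565 and 435 passed in those fits, in that order, beside 1534 with all libraries. The count was 5 without *Chd8* neo/neo replicate 3, where 2605 of 19045 genes passed. The count in *Chd8* neo/- was 2 without *Chd8* +/+ replicate 1 or 3, where 1475 and 1202 genes passed, beside 2158 with all libraries. It was 1 without *Chd8* +/+ replicate 2 or *Chd8* neo/- replicate 1 or 2, where 1539, 1052 and 1015 genes passed.

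**Figure D2:**
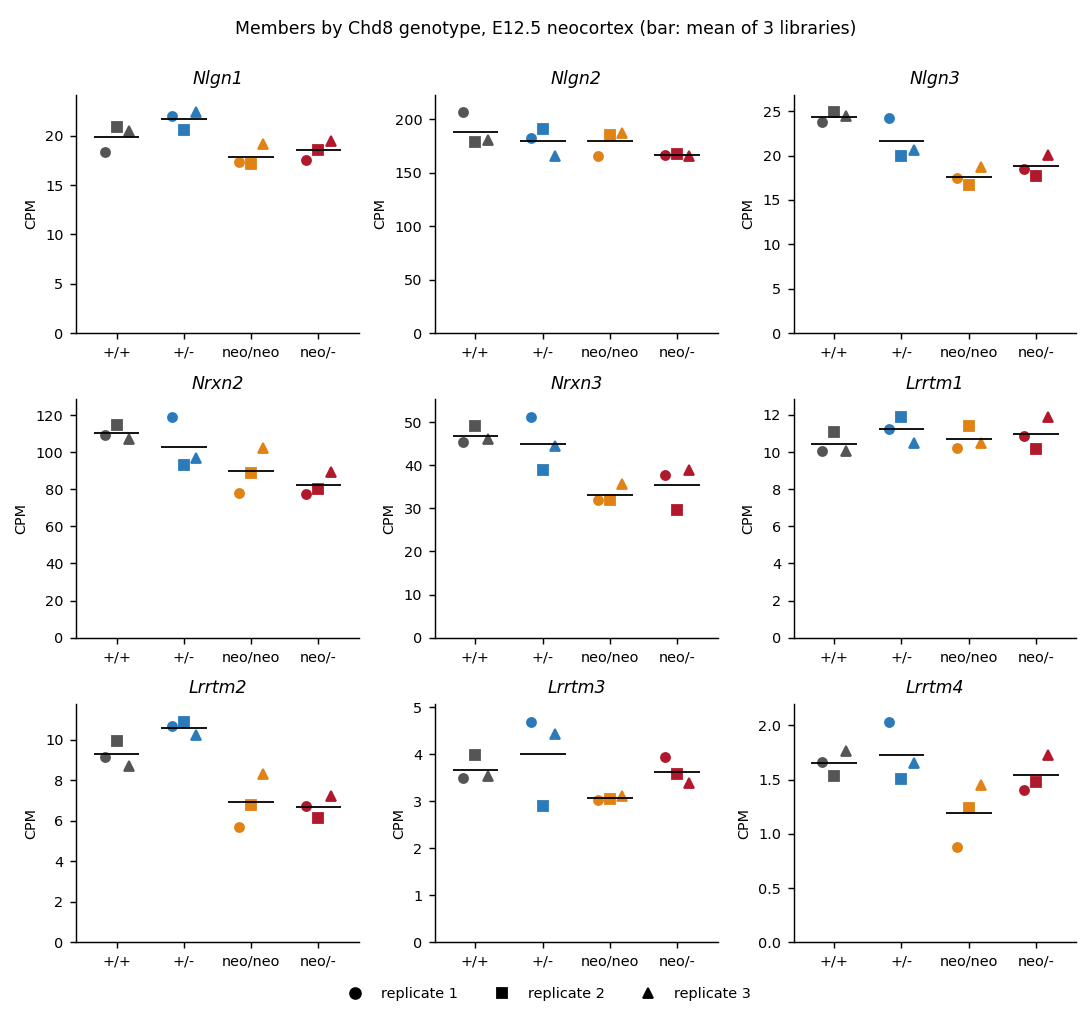
CPM of each member by *Chd8* genotype at E12.5 (vertical axes start at 0), with circle, square and triangle for replicates 1 to 3 and a bar for the mean of 3 libraries. For *Nlgn3*, *Nrxn2*, *Nrxn3* and *Lrrtm2* all neo/neo and neo/- points lie below all +/+ points, while *Lrrtm1* stays between 10.1 and 11.9 CPM in every genotype.

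Among the neuroligins, *Nlgn3* fell in both hypomorphs. This X-linked gene (ENSMUSG00000031302, chrX:101299168-101325963, GRCm38) had 23.8, 24.9 and 24.5 CPM in *Chd8* +/+, 24.2, 19.9 and 20.7 in *Chd8* +/-, 17.5, 16.6 and 18.7 in *Chd8* neo/neo, and 18.5, 17.7 and 20.1 in *Chd8* neo/-. Both hypomorphs lay wholly below wildtype, and in *Chd8* +/- only the first library reached the wildtype range. *Nlgn3* fell by 0.47 on the log2 scale in *Chd8* neo/neo (SE 0.0752, edgeR adjusted p = 0.00372) and by 0.38 in *Chd8* neo/- (SE 0.0751, edgeR adjusted p = 0.0058). Its neo/neo level thereby fell by 27.7%. The *Chd8* +/- group had -0.18 (edgeR adjusted p = 0.755, unadjusted p = 0.0338). Both falls passed under all 22 alternatives run, with adjusted p up to 0.0246 and 0.0365. *Xist* was high in 1 or 2 libraries of each other E12.5 genotype and in none of *Chd8* neo/-. With its level as a covariate *Nlgn3* stood at -0.48 and -0.36 on the log2 scale (edgeR adjusted p = 0.00741 and 0.0148). The *Nlgn3* model shares 3823 of 9271 exon bases with *Gm21986* on the same strand, and reads of the shared bases are counted to neither gene under the counter's default.

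The other neuroligins were not called against wildtype in the fit of all 4 genotypes. *Nlgn1* (ENSMUSG00000063887, chr3:25426215-26332460) had 18.4, 20.9 and 20.5 CPM in *Chd8* +/+ and 17.3, 17.2 and 19.2 in *Chd8* neo/neo, groups that overlap. Against wildtype it stood at -0.15 on the log2 scale in *Chd8* neo/neo (95% interval -0.30 to -0.01) and at -0.10 in *Chd8* neo/- (-0.25 to 0.04). *Nlgn2* (ENSMUSG00000051790, chr11:69823122-69837784) had 207, 179 and 180.3 CPM in *Chd8* +/+, 183, 191 and 166 in *Chd8* +/-, 166, 185 and 188 in *Chd8* neo/neo, and 167, 167 and 166 in *Chd8* neo/-. The neo/- libraries lay within 2 CPM of each other and below all wildtype libraries. *Nlgn2* had a log2 fold change of -0.18 there (95% interval -0.32 to -0.04, edgeR adjusted p = 0.091, or 0.0439 in a fit of those 2 groups alone) and was at -0.07 in *Chd8* neo/neo (-0.21 to 0.07).

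Of the neurexins, *Nrxn3* fell in both hypomorphs and *Nrxn2* in *Chd8* neo/-. *Nrxn3* (ENSMUSG00000066392, chr12:88722876-90334935) had 45.3, 49.1 and 46.0 CPM in *Chd8* +/+, 51.2, 39.0 and 44.4 in *Chd8* +/-, 32.0, 31.9 and 35.7 in *Chd8* neo/neo, and 37.7, 29.6 and 38.9 in *Chd8* neo/-. The *Chd8* +/- libraries spread to both sides of wildtype, and every hypomorph library lay below it. *Nrxn3* fell by 0.50 on the log2 scale in *Chd8* neo/neo (SE 0.109, edgeR adjusted p = 0.0196) and by 0.40 in *Chd8* neo/- (SE 0.108, edgeR adjusted p = 0.0333). With the trend on exon length and GC content removed, the adjusted p of *Nrxn3* was 0.0615 and 0.14, and both calls were lost. *Nrxn3* passed under 17 of 22 alternatives in *Chd8* neo/neo and under 13 of 22 in *Chd8* neo/-, as *Nrxn2* did in the latter.

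*Nrxn2* (ENSMUSG00000033768, chr19:6418731-6544169) had 109.5, 115 and 107 CPM in *Chd8* +/+, 119, 93.1 and 97.1 in *Chd8* +/-, 77.8, 88.6 and 102 in *Chd8* neo/neo, and 77.7, 79.9 and 89.2 in *Chd8* neo/-. Wildtype overlapped neither hypomorph. *Nrxn2* fell by 0.42 on the log2 scale in *Chd8* neo/- (SE 0.108, edgeR adjusted p = 0.0306), a call lost with *Xist* as a covariate (edgeR adjusted p = 0.0503) and with the length and GC trend removed (0.0909). In *Chd8* neo/neo it did not pass, at -0.30 (95% interval -0.54 to -0.06, edgeR adjusted p = 0.112), though its adjusted p was 0.0243 in DESeq2 with all libraries and 0.0219 in edgeR without *Chd8* neo/neo replicate 3, its highest library. It passed under these 2 of 22 alternatives. On the opposite strand, 3 genes share 129 to 669 exon bases with *Nrxn2*, and strand was not used in counting.

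Of the LRRTM genes only *Lrrtm2* passed against wildtype in edgeR with all libraries. *Lrrtm2* (ENSMUSG00000071862, chromosome 18), which binds neurexins at excitatory synapses, had 9.16, 9.93 and 8.72 CPM in *Chd8* +/+, 10.7, 10.9 and 10.2 in *Chd8* +/-, 5.69, 6.79 and 8.31 in *Chd8* neo/neo, and 6.71, 6.14 and 7.23 in *Chd8* neo/-. All *Chd8* +/- libraries lay above all wildtype libraries and all hypomorph libraries below them. *Lrrtm2* fell by 0.41 on the log2 scale in *Chd8* neo/neo (SE 0.115, edgeR adjusted p = 0.041) and by 0.47 in *Chd8* neo/- (SE 0.116, edgeR adjusted p = 0.0185), and its log2 fold change in *Chd8* +/- was 0.19 (95% interval -0.05 to 0.44, edgeR adjusted p = 0.834). The *Lrrtm2* fall in *Chd8* neo/neo passed under 10 of 22 alternatives and the one in *Chd8* neo/- under 18 of 22.

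*Lrrtm1* (ENSMUSG00000060780, chr6:77242689-77257791) had 10.1, 11.1 and 10.1 CPM in *Chd8* +/+, 11.3, 11.9 and 10.5 in *Chd8* +/-, 10.2, 11.4 and 10.5 in *Chd8* neo/neo, and 10.9, 10.2 and 11.9 in *Chd8* neo/-. All 4 genotypes overlap. Its 95% intervals for the log2 fold change were -0.13 to 0.21 in *Chd8* neo/neo and -0.10 to 0.25 in *Chd8* neo/-. *Lrrtm3* (ENSMUSG00000042846, chr10:63928472-64090277) had 166 to 179 counts in wildtype and 3.02, 3.06 and 3.11 CPM in *Chd8* neo/neo against 3.50, 3.99 and 3.53 in *Chd8* +/+. The *Lrrtm3* groups did not overlap, with a log2 fold change of -0.26 (95% interval -0.59 to 0.07, edgeR adjusted p = 0.315), while in *Chd8* neo/- it was -0.02. *Lrrtm4* (ENSMUSG00000052581, chr6:80018877-80810143) had 0.874, 1.24 and 1.45 CPM in *Chd8* neo/neo against 1.66, 1.53 and 1.76 in *Chd8* +/+. Its log2 fold change there was -0.47 (95% interval -0.86 to -0.07, edgeR adjusted p = 0.136), from 37 to 77 counts a library.

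**Figure D3:**
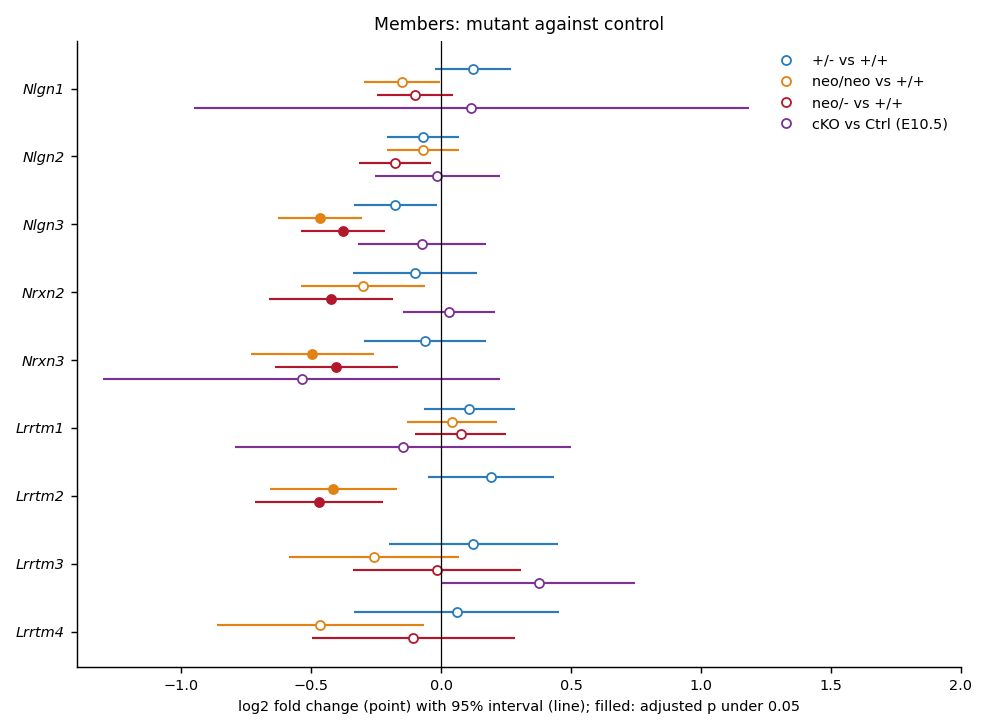
Log2 fold change (points) with its 95% interval (lines) of each member, for *Chd8* +/-, neo/neo and neo/- against +/+ at E12.5 and cKO against Ctrl at E10.5, filled where the edgeR adjusted p was under 0.05. Filled points are *Nlgn3*, *Nrxn3* and *Lrrtm2* in both hypomorphs and *Nrxn2* in neo/-; *Lrrtm2* and *Lrrtm4* have no E10.5 point.

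*Lrrtm1*, *Lrrtm2* and *Lrrtm3* lie inside introns of alpha-catenin genes, on the opposite strand and with 0 shared exon bases. *Ctnna2*, the neuronal alpha-catenin around *Lrrtm1*, fell by 0.37 on the log2 scale in *Chd8* neo/neo (SE 0.0971, edgeR adjusted p = 0.0411), where *Lrrtm1* had 0.04. *Ctnna1*, the widely expressed alpha-catenin around *Lrrtm2*, stood at 0.10 in *Chd8* neo/neo (edgeR adjusted p = 0.266), where *Lrrtm2* fell. *Ctnna3*, around *Lrrtm3*, had a mean of 6.8 counts a library at E12.5. *Gm44231* lies within *Lrrtm4* on the same strand, with no shared exon and 35.4 CPM in wildtype against 1.65 for *Lrrtm4*.

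In the hypomorphs some neuron markers were lower too. Beside the marker counts below, 8.16% of all genes tested passed and 4.45% fell in *Chd8* neo/neo. In *Chd8* neo/- 11.5% passed and 5.99% fell. Of 19 markers of differentiating neurons, 4 fell in *Chd8* neo/neo, among them *Map2* (log2 fold change -0.32, edgeR adjusted p = 0.00842), *Dcx* (-0.42, 0.00976) and *Elavl4* (-0.29, 0.0173), and 2 fell in *Chd8* neo/-. Their median log2 fold changes were -0.29 and -0.14. Their summed level was 4621 to 5477 CPM in *Chd8* +/+, 4812 to 5531 in *Chd8* +/-, 3757 to 4476 in *Chd8* neo/neo and 4188 to 4703 in *Chd8* neo/-, whose highest library passed the lowest wildtype library. Of 12 progenitor markers, *Pax6* (0.19, edgeR adjusted p = 0.0199) and *Sox2* (0.29, 0.0251) rose in *Chd8* neo/neo and 0 passed in *Chd8* neo/-. In *Chd8* neo/-, 3 of 10 blood and microglia markers rose, with a summed level of 4459 to 6902 CPM beside 3161 to 3849 in wildtype. Of 12 markers of ventral telencephalon and interneurons 1 fell in each hypomorph, *Gad1* in *Chd8* neo/neo (-0.40, edgeR adjusted p = 0.0318). Of 7 Cajal-Retzius markers 0 passed in either, and 3 had a log2 fold change below 0 in *Chd8* neo/neo. Their summed level was 269.5 to 322.5 CPM in *Chd8* neo/neo and 309 to 336 in *Chd8* neo/-, beside 330.2 to 377.4 in wildtype. Of 10 endothelial and mesenchymal markers *Kdr* fell in *Chd8* neo/neo (-0.17, edgeR adjusted p = 0.0236). The part of these shifts in the members' values was not tested, and fewer neurons and less RNA per neuron cannot be told apart in bulk tissue.

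Partners of the members were taken from lists written from general knowledge. Of all genes tested, 4.45% fell in *Chd8* neo/neo and 5.99% in neo/- embryos, and the counts in the lists were not tested against these shares. Of 18 tested ligands and modifiers, 2 fell in *Chd8* neo/neo and 3 in neo/- embryos, with medians of -0.17 and -0.07 on the log2 scale. They include the calsyntenins *Clstn2* (-0.51, SE 0.0909, edgeR adjusted p = 0.00587) and *Clstn3* (-0.37, SE 0.0982, edgeR adjusted p = 0.04), postsynaptic adhesion proteins, in *Chd8* neo/neo. *Gpr158*, an orphan receptor, had -0.55 there (edgeR adjusted p = 0.0575). Of 20 intracellular partners of neuroligins, 7 fell in *Chd8* neo/neo and 5 in neo/- embryos, with the excitatory scaffold genes *Dlgap2* at -0.45 (edgeR adjusted p = 0.0258) and *Shank2* at -0.25 (0.0299) in *Chd8* neo/neo.

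Of 20 intracellular partners of neurexins, 6 fell in *Chd8* neo/neo and 5 in neo/- embryos. Here *Cacna1b*, the N-type calcium channel subunit of nerve terminals, was at -0.64 in *Chd8* neo/neo (SE 0.103, edgeR adjusted p = 0.00511) and *Lin7c*, a scaffold gene, had -0.17 (0.0327). The larger list of 47 tested other synaptic adhesion genes had 7 lower and 1 higher in *Chd8* neo/neo, with a median of -0.09. *Ncam1* (-0.41, edgeR adjusted p = 0.0118) and *Slitrk4* (-0.34, 0.0129) fell and *Lrfn4* (0.22, 0.0175) rose. In *Chd8* neo/- the same list had 8 lower and 1 higher, with a median of -0.12.

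**Figure D4:**
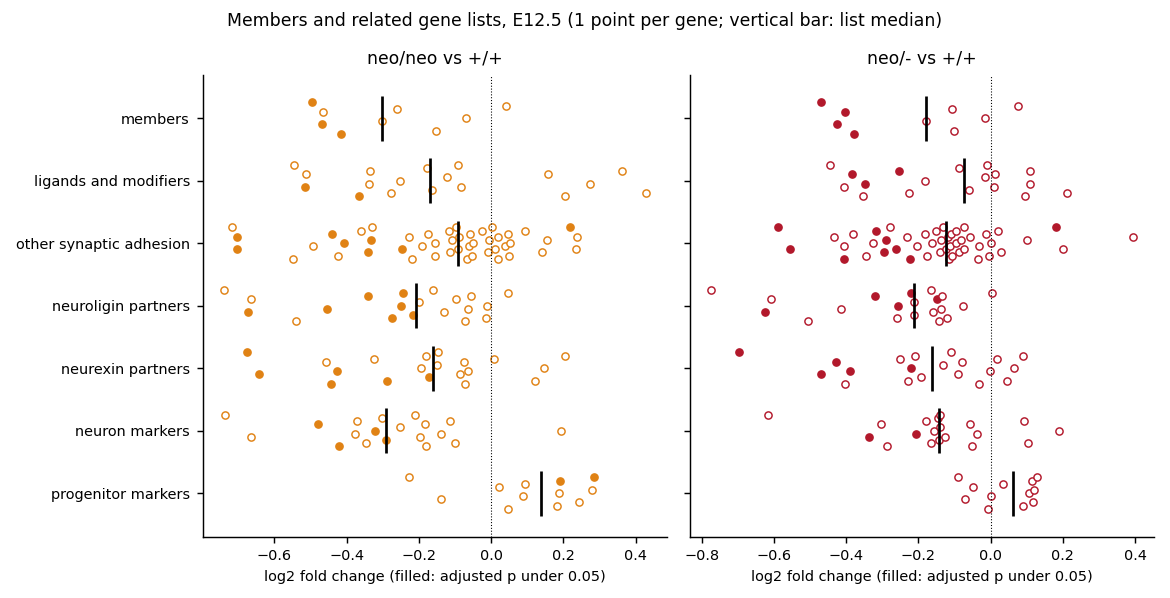
Log2 fold change of each tested gene (1 point a gene, filled where the edgeR adjusted p was under 0.05) for the 9 members, their partner lists and markers of neurons and progenitors, in *Chd8* neo/neo and *Chd8* neo/- against *Chd8* +/+. Bars mark list medians, -0.30 for the members and -0.29 for neuron markers in *Chd8* neo/neo, with progenitor markers to the right of 0.

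Set against *Chd8* +/- instead of wildtype, the hypomorphs gave a partly different set. In *Chd8* neo/neo *Nlgn1* (-0.28, edgeR adjusted p = 0.0363), *Nlgn3* (-0.29, 0.0412), *Nrxn3* (-0.43, 0.0427) and *Lrrtm2* (-0.61, 0.0159) were lower, 4 of 9 members where 5.28% of genes passed and 3.28% were lower. These values come from the fit without a replicate block. Deviations of same-numbered libraries of these groups correlated weakly, at 0.108 to 0.199. With the replicate number as a block over all genotypes, the edgeR adjusted p of *Nlgn3* was 0.0544. Those of *Nlgn1*, *Nrxn3* and *Lrrtm2* were then 0.0415, 0.0446 and 0.0287. With the same block fitted on just these 2 groups, an alternative added after seeing the data, all 4 calls were lost (edgeR adjusted p = 0.0631 to 0.101). Without *Chd8* +/- replicate 1 or *Chd8* neo/neo replicate 1 or 2, 0 of 9 passed, where 62, 60 and 23 of all genes passed. The count was 1 or 2 without *Chd8* +/+ replicate 3, *Chd8* +/- replicate 3 or *Chd8* neo/- replicate 1 or 2. Over all genes, 607, 308, 526 and 650 passed there, beside 994 with all libraries. In *Chd8* neo/- *Lrrtm2* alone was lower in edgeR (-0.66, edgeR adjusted p = 0.00673), 1 of 9 where 5.43% passed and 3.25% were lower. DESeq2 called 4 of 9, and over all genes it called more than edgeR, 1689 of 13757. With both hypomorphs set side by side 0 of 9 passed, where 0.0159% of genes did, in edgeR and in every alternative run, and 1585 genes had an unadjusted p under 0.05. For *Nlgn3* the interval of that difference was -0.07 to 0.25 and for *Nrxn2* -0.36 to 0.12 on the log2 scale.

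Conditional deletion was compared at E10.5, when the members had lower levels. Of the 9 members, 7 were tested and 0 passed in cKO against Ctrl, in edgeR and in DESeq2, which gave *Nrxn3* no adjusted p, where 11.4% of 18435 genes passed in edgeR. Of all genes, 5049 had an unadjusted p under 0.05, *Lrrtm3* among them. *Nlgn3* had 6.08, 6.79 and 6.07 CPM in Ctrl and 5.31, 6.16 and 6.49 in cKO, with a log2 fold change of -0.07 (95% interval -0.32 to 0.17). *Nrxn2* had 21.6, 19.3 and 19.3 CPM in Ctrl and 21.2, 20.9 and 19.4 in cKO, with 0.03 (-0.15 to 0.21). *Nlgn2* had 69.1, 79.5 and 93.3 CPM in Ctrl and 78.7, 73.6 and 87.2 in cKO, with -0.01 (-0.26 to 0.23). For these 3 the groups overlap.

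The other members had few counts at E10.5. *Nrxn3* had 21, 13 and 28 counts in Ctrl and 11, 24 and 16 in cKO, and its interval of -1.30 to 0.23 is wide enough to hold falls of the size seen at E12.5. *Nlgn1* had 50, 32 and 119 counts in Ctrl and 61, 76 and 123 in cKO, so the third library was highest in both groups. *Lrrtm1* had 121, 70 and 184 counts in Ctrl and 123, 161 and 117 in cKO, with a log2 fold change of -0.15 (95% interval -0.80 to 0.50). *Lrrtm3* had 1.78, 1.71 and 2.33 CPM in Ctrl and 2.18, 2.52 and 2.85 in cKO, with 0.37 (95% interval 0.00 to 0.75, edgeR adjusted p = 0.178). *Lrrtm2*, with 2 to 10 counts a library, and *Lrrtm4*, with 6 to 14, were under the filter.

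**Figure D5:**
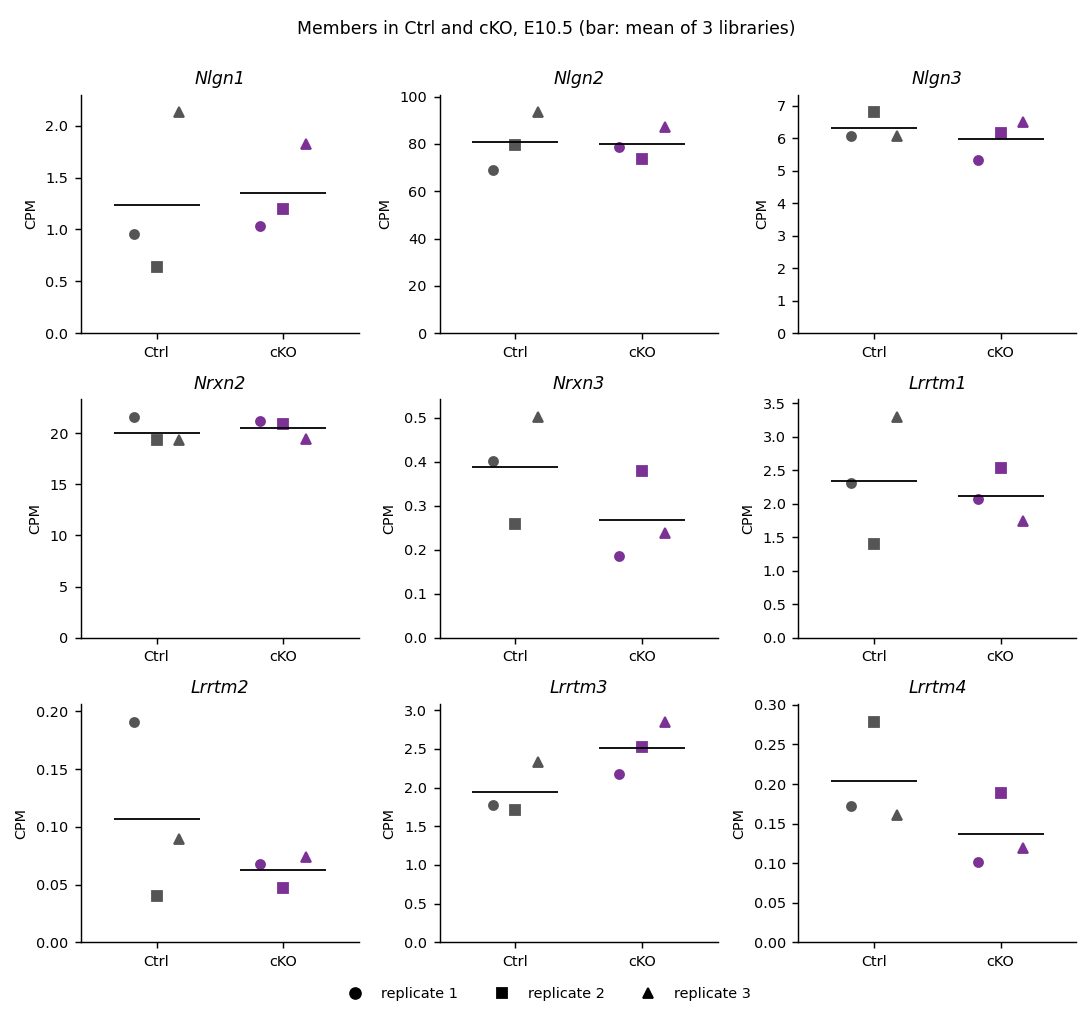
CPM of each member in Ctrl and cKO at E10.5 (vertical axes start at 0), with circle, square and triangle for replicates 1 to 3 and a bar for the mean of 3 libraries. Ctrl and cKO points overlap for every member, and *Lrrtm2*, *Lrrtm4* and *Nrxn3* stay under 1 CPM.

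Among the partners at E10.5, some genes rose and some fell, where 11.4% of all 18435 genes tested passed in edgeR. The counts in the lists were not tested against that share. Of 15 tested ligands and modifiers, *Igsf9b* (0.80, SE 0.130, edgeR adjusted p = 0.00404), an inhibitory synapse gene, and *Gpc4* (0.37, 0.00663), a glypican that binds LRRTM4, rose and *Clstn3* (-0.59, 0.00451) fell. Of 44 other adhesion genes 4 rose and 0 fell, with *Flrt1* (0.54, edgeR adjusted p = 0.0131), *Ephb2* (0.34, 0.0172) and *Ptprf* (0.31, 0.0311) first. Of 20 neuroligin partners *Dlg1* fell (-0.31, edgeR adjusted p = 0.00999). Of 20 neurexin partners *Apba2* rose (0.27, edgeR adjusted p = 0.0195) and *Caskin1* fell (-0.32, 0.0273). Of 17 tested neuron markers *Snap25* fell (-0.67, edgeR adjusted p = 0.0191), and 5 of 10 endothelial and mesenchymal markers rose, with a summed level of 1011 to 1231 CPM in cKO and 821 to 915 in Ctrl, whose part was not tested.

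For each member that fell, the 3 genes whose log2 CPM followed it most closely over the 12 E12.5 libraries were named out of 18144 genes. *Nlgn3* was followed by *Cpne5* (Pearson's r = 0.97), *Abca3* (0.96) and *Scamp5* (0.96), the last a synaptic vesicle gene. *Nrxn3* was followed by *Sestd1* (0.97), *Dcx* (0.97), a microtubule gene of migrating neurons, and *Elmo1* (0.97). *Nrxn2* was followed by *Rusc2*, *Agap2* and *Samd14* (0.97 each), and *Lrrtm2* by *1700025G04Rik*, *Zyg11b* and *Rims1* (0.97 each), the last a gene of the release site. The 12 points share genotype, library and depth, and these genes were picked for their r.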

How the data were processed

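RNA sequencing counts of 18 libraries were used (6 groups, 3 libraries each). Per the study's methods and the labels, the authors selected mRNA, built dUTP libraries, trimmed with Trim Galore 0.4.1, aligned with TopHat2 2.1.0 and counted with featureCounts 1.5.0 on GRCm38. The deposited values are raw counts per gene and run, without normalization or pooling of replicates, and the file header shows no strand setting at E12.5. The deposited exon length column served for levels per kilobase. Both runs of a library were summed, and 0 count columns were of unknown sample. Positions are GRCm38, and 46005 of 46603 identifiers matched a symbol.

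Counts were tested in R 4.3.3 with edgeR 4.0.16 (filterByExpr, TMM, robust quasi-likelihood fit, two-sided, Benjamini-Hochberg adjustment over all genes tested, threshold 0.05). The 12 libraries of E12.5 were fitted together and the 6 of E10.5 apart. Per the study's methods, replicates of a genotype came from separate litters. The fits were tested on simulated counts. Log2 CPM used a prior count of 2, and followers of a member needed a mean of 10 counts. Alternatives were DESeq2 1.42.0, RLE and upper quartile scaling, no filter, replicate block, each run alone, *Xist* as covariate, length and GC trends removed (loess, span 0.5), a fit on just the groups compared, and leaving out single libraries. Deviations from the group means correlated at 0.108, 0.195 and 0.199 between same-numbered libraries of *Chd8* +/- and *Chd8* neo/neo. No source names a pairing of these groups. The main fit had no block, and the replicate block was run only as an alternative. Named genes are the 9 members, *Chd8*, genes overlapping a member, the 3 smallest adjusted p of each list in *Chd8* neo/neo and in cKO, and 3 followers of each member that fell. Some genes that this rule names are not reported here. Members and lists were chosen with earlier results of these data known.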

Additional observations from a re-analysis of the deposited data

How the results depend on the processing

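Among 9 members, 3 were called in *Chd8* neo/neo against *Chd8* +/+. This became 4 in DESeq2, with *Nrxn2* added, where 2285 of 13757 genes passed. It was 1 with the length and GC trend removed, where 944 of 18810 passed, and 1 to 5 with single libraries left out. In *Chd8* neo/- against *Chd8* +/+, 4 were called, with 2 under no filter on low counts, 2 with the first run only, 2 with *Xist* as covariate, 2 with the length and GC trend removed, 5 with only those groups fitted, where *Nlgn2* was added, and 1 to 4 with single libraries left out. In *Chd8* neo/neo against *Chd8* +/-, 4 were called, with 1 for the first run only, 1 with *Xist* as covariate, 1 with the length and GC trend removed, 0 with only those groups fitted, and 0 to 5 with single libraries left out. A fit of those groups alone with the replicate block, added after seeing the data, gave 0. In *Chd8* neo/- against *Chd8* +/-, 1 was called, with 4 in DESeq2, 2 for the second run only, 2 with only those groups fitted, and 1 to 2 with single libraries left out. Genes called over all genes moved under the same fits. In *Chd8* neo/neo against *Chd8* +/-, 994 of 18810 passed in the main fit, 326 with *Xist* and 309 with the trend removed. With only those groups 42 passed, or 77 with their block. Leaving out single libraries gave 23 to 2100 genes there. It gave 435 to 2605 in *Chd8* neo/neo against *Chd8* +/+ (1534 in the main fit). In *Chd8* neo/- it gave 1015 to 2574 against *Chd8* +/+ (2158) and 244 to 1439 against *Chd8* +/- (1021). The cause of these changes was not tested.

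With the replicate block over all genotypes, *Lrrtm2* in *Chd8* neo/neo had an adjusted p of 0.0528 and *Nrxn2* in *Chd8* neo/- one of 0.0518, both edgeR, although replicate numbers do not pair those groups with wildtype. The block left 2, 3, 3 and 1 members called in the 4 comparisons in the order above. No call of a single member changed sign under any alternative. Of 1301 values, 1204 kept their side of the threshold, 84 lost a call and 13 gained one. Most of the 1301 belong to members not called in the main fit, which had no call to lose. Calls of the main fit held in 9 of 23 alternatives at the lowest (*Nlgn3* and *Nrxn3* in *Chd8* neo/neo against *Chd8* +/-). At the highest they held in 22 of 22 (*Nlgn3* in both hypomorphs against wildtype and *Lrrtm2* in *Chd8* neo/- against *Chd8* +/-). The count of 0 members held in *Chd8* +/- against *Chd8* +/+, in *Chd8* neo/- against *Chd8* neo/neo and in cKO under every alternative run. All 9 members stayed higher at E12.5 than at E10.5 with the first run only, and the share of all genes that did was not computed. Levels per coding length were not run. *Lrrtm2* and *Lrrtm4* could not be compared at E10.5 at this depth in the filtered fit.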
